A study of Cryptomeria japonica with 72 samples.

Results

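Shortly after cuttings of Cryptomeria japonica (sugi, a Japanese conifer propagated by rooted cuttings) were set in the soil, transcripts of the middle of the cutting, the stem above ground, were compared between 0 hpi and 3 hpi (hours post insertion). The comparison used 6 of the 72 arrays of the series, those labelled middle at 0 hpi (3 replicates) and middle at 3 hpi (3 replicates), chosen by these labels alone. Of the 19304 targets on the array, 14235 were well above background on all 6 arrays and were tested. All cuttings came from clone Tsukuba 1, from donor trees 18 years old, carried no transgene and received no treatment other than excision and insertion. They were kept in a greenhouse whose environment was not regulated. At 0 hpi the cuttings had been excised about 2 h before, and 0 hpe (hours post excision) denotes material taken at excision. Different cuttings were harvested at each time, and base (underground), middle and needles of a time came from the same 3 cuttings. The 0 hpi and 3 hpi samples also differed in time of day, which cannot be told apart from time since insertion, and a single clone was used, so that the spread covers cuttings of 1 genotype.

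Severing a stem triggers wound signalling within minutes to hours. Jasmonate, made from membrane lipids through allene oxide synthase, and ethylene, acting on AP2/ERF transcription factors, relay the wound signal, while NBS-LRR proteins are intracellular receptors that detect pathogen effectors. In stem cuttings these early responses come before adventitious roots are initiated at the base. The middle lies away from both the cut surface and the site of rooting.

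The targets carry the identifiers of the array design. Names given below are those of the best Arabidopsis thaliana hit in tables of target clusters that the study chose on patterns of these arrays, and roles in the text are those known in Arabidopsis. A hit with an E value below 1e-05 was held by 4515 of the targets tested, and the counts for gene lists below are therefore no independent evidence of direction. No array probe sequence was used here. The quantitative RT-PCR primers of the study were listed for 2 of the called targets, nitrate reductase and SCL3, and are shown because their arrays are described below. Their position on the array targets was not checked. In lower case, 5′ to 3′, these primers were
NIA1, reCj19463, forward: gccatgacgtgagattgttca
NIA1, reCj19463, reverse: ggtagggagacccaagttttga
SCL3, reCj22196, forward: ggctgagtgaggccttgaact
SCL3, reCj22196, reverse: gctgcggaagcacagattc

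Between 78.7% and 84.6% of the targets' spots were well above background on the 6 arrays, and no spot was saturated. The 3 arrays of 0 hpi correlated with each other at r = 0.970 to 0.987 over targets, and those of 3 hpi at 0.891 to 0.946, with the lowest value for replicates 1 and 3, so that the cuttings at 3 hpi differed more among themselves. The arrays lay on 2 slides of the 9 slides of the series, each holding arrays of both times: replicates 1 and 2 of 0 hpi with replicate 1 of 3 hpi, and replicate 3 of 0 hpi with replicates 2 and 3 of 3 hpi. The 3 middle arrays of 0 hpe were on another slide, which held no middle array of 0 hpi or 3 hpi. Later middle times had arrays on that slide and on the other 2. No middle difference from 0 hpe was adjusted for slide here, so that those of 0 hpi and 3 hpi are also differences between slides. Markers of green tissue were read on the same arrays: the 13 photosynthesis targets had array medians of 3.63, 3.57 and 3.33 at 0 hpi and of 1.74, 2.73 and 3.68 at 3 hpi, none was called or had an unadjusted p below 0.05, and replicate 3 of 3 hpi was above every array of 0 hpi. The 23 targets of secondary wall formation, markers of wood, had array medians of 1.00, 0.59 and 0.73 at 0 hpi and of 0.50, 1.04 and −0.51 at 3 hpi. Differences in the share of a cell type and in the RNA per cell cannot be told apart in such samples.

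Within 3 hours, 1190 targets (8.36% of those tested) changed by at least 2-fold with an adjusted p below 0.05 (limma, Benjamini-Hochberg). Of these, 679 (4.77%) were higher and 511 (3.59%) lower at 3 hpi, while the median log2 difference of all targets was −0.01. The median log2 difference was 1.59 among the targets called higher and −1.84 among those called lower. Changes of 4 or more on the log2 scale were seen in 37 targets called higher and in 15 called lower. The 6 arrays did not overlap between the times for 676 of the targets called higher and 478 of those called lower, against 40.3% of all targets tested. Within each slide separately, the sign was the same on both slides for 679 of the targets called higher and for 504 of those called lower. The same 6 arrays had chosen these targets, so that this agreement is a description and no separate evidence. The median difference of the targets called higher was 1.98 on the slide with replicate 1 of 3 hpi and 1.33 on the other. The count of calls varied with the arrays used: it was 762 without replicate 1 of 3 hpi, 799 without replicate 2 of 0 hpi and 858 without replicate 1 of 0 hpi, but 1448 without replicate 3 of 3 hpi.

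The largest rise belonged to reCj30462, an AP2/ERF transcription factor, a family named for its ethylene-responsive members. Its values (log2 signal relative to the 75th percentile of each array, the scale of all levels below) were −2.85, −2.31 and −2.13 in replicates 1 to 3 of 0 hpi and 6.24, 5.65 and 6.05 at 3 hpi. All arrays of 3 hpi lay far above those of 0 hpi, a log2 difference of 8.41 ± 0.76 (SE), or 340-fold (adjusted p = 7.11e-10). The middle mean of this target was −1.82 at 0 hpe and 5.94 at 1 dpi (day post insertion), so that its high level outlasted the interval. A second AP2/ERF factor, reCj32805, was at −3.81, −3.49 and −3.56 at 0 hpi and at 1.40, 1.29 and 2.08 at 3 hpi. Again no array overlapped, with a log2 difference of 5.21 ± 0.61 (adjusted p = 1.79e-07).

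Allene oxide synthase (AOS, reCj23574), which commits lipid hydroperoxides to jasmonate synthesis, was at −1.69, −3.17 and −0.21 at 0 hpi and at 4.45, 5.99 and 4.78 at 3 hpi. Its arrays at 0 hpi were spread over several log2 units and still lay below every array of 3 hpi (log2 difference 6.77 ± 1.35, adjusted p = 0.000634). At 0 hpe, on another slide, it was at −5.99, −7.32 and −6.84, lower than on any array of 0 hpi. Every spot was well above background on only 2 of those arrays. MYC2 (reCj18147), the bHLH factor that activates jasmonate-responsive genes, was at 1.59, 1.24 and 1.78 at 0 hpi and at 2.82, 3.62 and 2.96 at 3 hpi. The groups did not overlap, and the log2 difference was 1.59 ± 0.38 (adjusted p = 0.00371). These were the 2 called members among 16 jasmonate targets, whose median log2 difference was 0.27. The other 14 were not called, and 7.8% of all targets with a usable hit were called higher.

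Nitrate reductase (NIA1, reCj19463, with the primers shown above), which reduces nitrate to nitrite and can yield nitric oxide, was at −1.90, −2.43 and −2.88 at 0 hpi and at 3.46, 2.82 and 2.78 at 3 hpi. Every array of 3 hpi lay above every array of 0 hpi, and the group means differed 42.9-fold (log2 difference 5.42 ± 0.78, adjusted p = 6.06e-06). At 0 hpe the mean was −0.03 and at 1 dpi 0.19, so that the target was low at 0 hpi and high at 3 hpi relative to both. A 2-oxoglutarate-dependent oxygenase, reCj25943, stood at −1.85, −2.73 and −1.54 at 0 hpi and at 3.89, 2.94 and 2.92 at 3 hpi. It had no overlap between the times, with a log2 difference of 5.29 ± 0.68 (adjusted p = 9.39e-07).

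Among proteins at the cell surface, the receptor-like kinase RLK1 (reCj33076) was at −3.74, −4.58 and −1.06 at 0 hpi and at 2.22, 1.81 and 2.22 at 3 hpi. The ABC transporter ABCG40 (reCj17987), which imports abscisic acid in Arabidopsis, was at −2.95, −3.68 and −0.91 at 0 hpi and at 3.43, 2.14 and 2.50 at 3 hpi. In both targets replicate 3 of 0 hpi was higher than the other 2 and still below each array of 3 hpi (log2 difference 5.21 ± 1.06, adjusted p = 0.000739 for RLK1, and 5.21 ± 1.19, adjusted p = 0.00255 for ABCG40). The same replicate stood apart for MLP423 (reCj32627), a major latex protein of the pathogenesis-related class, which was at −3.34, −3.29 and −0.89 at 0 hpi and at 2.39, 1.90 and 2.43 at 3 hpi. Its log2 difference was 4.75 ± 1.07 (adjusted p = 0.00233).

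The 2 other targets of the 10 largest rises with a usable hit were less secure. The gibberellin synthesis enzyme GA3 (reCj34157) was at 0.03, −2.91 and −1.57 at 0 hpi and at 2.47, 5.11 and 4.16 at 3 hpi, a log2 difference of 5.40 ± 1.69 (adjusted p = 0.0285). Its arrays did not overlap, but the call was lost without any of 4 of the 6 arrays, replicates 2 and 3 of each time, with an adjusted p of 0.131 without replicate 2 of 0 hpi. It was also lost with slide as a block (0.062), with a replicate block (0.0883), with only the middle arrays in the fit (0.0713) and with array weights (0.166). EXL2 (reCj27896), a cell wall protein of the EXORDIUM family, was at −0.64, −2.61 and −0.77 at 0 hpi and at 3.22, 4.43 and 4.15 at 3 hpi, and its log2 difference was 5.27 ± 1.36 (adjusted p = 0.00752). Without replicate 2 of 0 hpi, the lowest array of the target, the difference was 4.63 and the adjusted p 0.055, and the call was lost with slide as a block (0.0608) and with a replicate block (0.0512). Other targets with EXL2 as best hit, reCj16168 and reCj27157, were not called in the middle (closing section). The largest rises without a usable hit were those of reCj32147 (5.77 ± 0.95, adjusted p = 5.03e-05) and reCj21174 (5.75 ± 0.84, adjusted p = 7.92e-06).

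**Figure D1:**
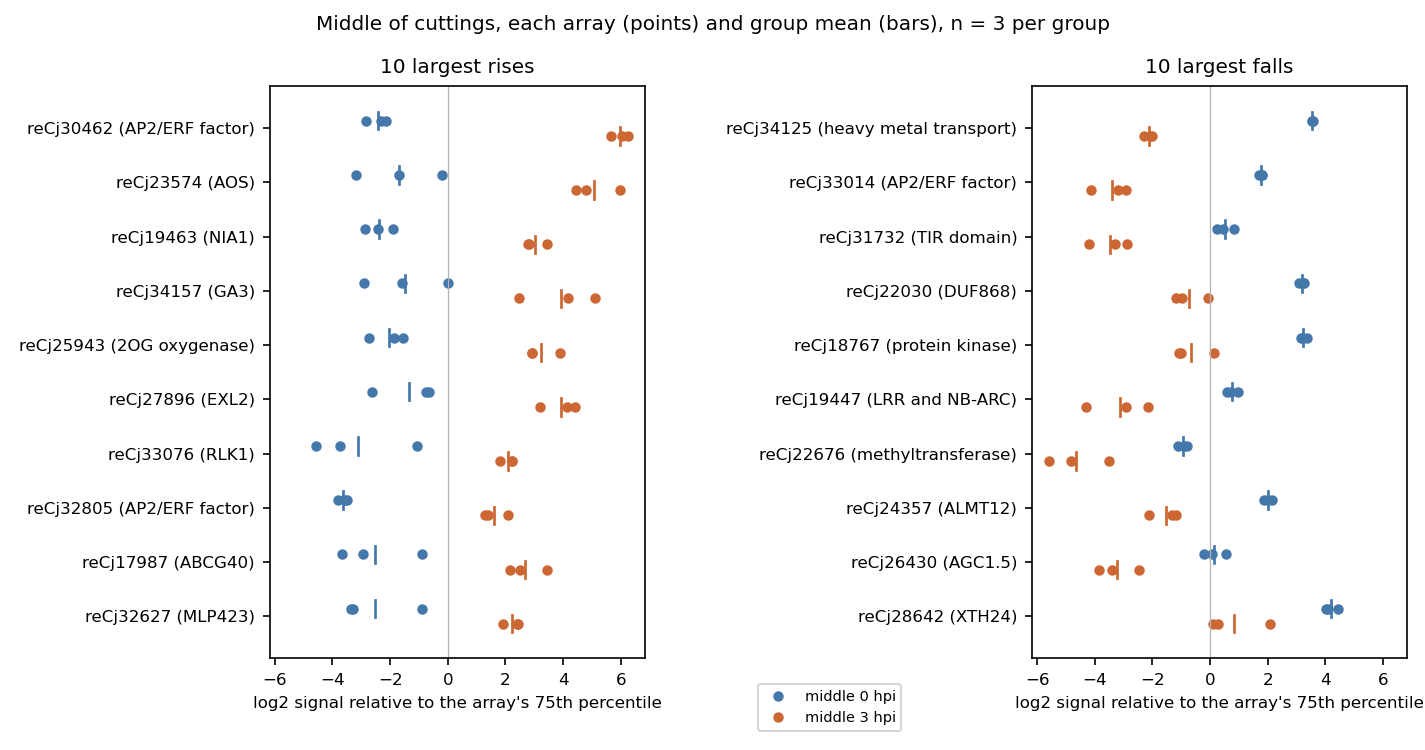
The 10 targets with the largest rises (left) and the 10 with the largest falls (right) that had a usable Arabidopsis hit, each array as a point and the group mean as a bar, with the log2 signal set against each array's 75th percentile (n = 3 per group). By the rule that chose them no target shown has overlapping groups, and the 3 arrays of 0 hpi lie close together for every fall but not for every rise.

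The largest fall with a usable hit was that of reCj34125, a protein of the heavy metal transport and detoxification superfamily. It was at 3.54, 3.54 and 3.56 at 0 hpi and at −2.30, −2.01 and −2.08 at 3 hpi. The 3 arrays within each time were nearly equal, and the log2 difference was −5.67 ± 0.55, or 51.1-fold lower (adjusted p = 3.8e-09). The mean at 0 hpe had been −3.07, so that the level at 0 hpi stood between lower ones on either side. The AP2/ERF factor reCj33014 behaved alike, with 1.71, 1.81 and 1.79 at 0 hpi, −4.13, −3.20 and −2.91 at 3 hpi and a mean of −3.48 at 0 hpe. Its log2 difference from 0 hpi to 3 hpi was −5.18 ± 0.48 (adjusted p = 1.51e-09).

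XTH24 (reCj28642), a xyloglucan endotransglucosylase that cuts and rejoins wall polysaccharides, was at 4.03, 4.08 and 4.44 at 0 hpi and at 2.09, 0.09 and 0.26 at 3 hpi. Replicate 1 of 3 hpi had fallen less than the other 2, and all 3 were below 0 hpi (log2 difference −3.37 ± 0.66, adjusted p = 0.000533). At 0 hpe every spot was well above background on 1 of the 3 arrays only. A protein kinase, reCj18767, went from 3.21, 3.15 and 3.35 at 0 hpi to 0.15, −1.09 and −1.02 at 3 hpi, and had the smallest adjusted p among the named falls (log2 difference −3.89 ± 0.29, adjusted p = 1.06e-11). The DUF868 protein reCj22030, of unknown function, went from 3.09, 3.25 and 3.23 to −0.08, −1.19 and −0.97. Here too the groups were clearly apart (−3.94 ± 0.35, adjusted p = 7.11e-10).

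The falls of ALMT12 and AGC1.5 started from a level within the range of the arrays at excision. Those arrays were scattered, at −0.24, 1.94 and 2.84 for ALMT12 and at 0.98, 0.81 and −0.93 for AGC1.5. ALMT12 (reCj24357), an anion channel of the malate transporter family that works in stomatal closure, had a mean of 1.52 at 0 hpe and was at 1.88, 2.01 and 2.15 at 0 hpi and at −2.13, −1.32 and −1.17 at 3 hpi. All arrays of 3 hpi were below those of 0 hpi (−3.55 ± 0.78, adjusted p = 0.00167). The kinase AGC1.5 (reCj26430) had a mean of 0.29 at 0 hpe, was at 0.08, −0.22 and 0.54 at 0 hpi and at −3.84, −3.41 and −2.46 at 3 hpi. Its log2 difference was −3.37 ± 0.71 (adjusted p = 0.00111), with no overlap. The methyltransferase reCj22676 (−3.71 ± 0.51, adjusted p = 3.49e-06) and the TIR-domain protein reCj31732 (−3.98 ± 0.75, adjusted p = 0.000317) completed the largest falls with the disease resistance protein described below. Without a usable hit, reCj32482 (−6.00 ± 0.90, adjusted p = 1.32e-05) and reCj29430 (−5.13 ± 0.71, adjusted p = 3.21e-06) fell most.

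To see where these changes lay in the 8 time points, the median of the called targets was followed relative to 0 hpe. For the 679 targets called higher, the middle was at −0.03 ± 0.09 (SD, n = 3) at 0 hpi, then 1.59 ± 0.32 at 3 hpi and 1.09 ± 0.15 at 1 dpi. It was 0.97 ± 0.26 at 3 dpi, followed by 0.49 ± 0.11 after 1 week (1 wpi), 0.20 ± 0.13 at 3 wpi and 0.43 ± 0.51 at 6 wpi, where replicate 2 was at 1.01. The targets called lower took another course: the median of the 511 targets was 1.54 ± 0.11 at 0 hpi, −0.10 ± 0.17 at 3 hpi and −0.26 ± 0.03 at 1 dpi. The 0 hpi and 3 hpi arrays had chosen these targets, so that the values at those times are a description, and the 0 hpi arrays enter both differences. Target by target, 310 of the 511 targets called lower (60.7%) were at least 2-fold higher at 0 hpi than at 0 hpe, against 13.3% of all targets tested. At 3 hpi the same 511 targets had spread to both sides of 0 hpe: 141 (27.6%) were at least 2-fold above it, 168 (32.9%) at least 2-fold below it and 202 (39.5%) within 2-fold, against 73.5% of all targets within 2-fold. Of the 679 called higher, 486 (71.6%) were within 2-fold of 0 hpe at 0 hpi, below the 80.0% of all targets, with 103 above and 90 below. In middle arrays that shared none with the comparison, 1 dpi against 0 hpe, 22.3% of 13369 targets were called (10.4% higher and 11.9% lower). There 298 of 633 targets called higher at 3 hpi (47.1%) were called higher and 8 lower, and 125 of 457 called lower (27.4%) were called lower and 43 higher.

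At the base, whose arrays came from the same cuttings and entered the fit only through its estimate of the spread, the values at 0 hpe and 0 hpi were on shared slides. There the median of the 511 targets relative to 0 hpe was 1.77 ± 0.09 at 0 hpi, 0.37 ± 0.16 at 3 hpi and −0.46 ± 0.08 at 1 dpi, and 310 of them (60.7%, against 14.3% of all targets) were at least 2-fold higher at 0 hpi than at 0 hpe. In needles the same median was 0.57 ± 0.15 at 0 hpi and 0.03 ± 0.04 at 3 hpi. The 679 targets called higher in the middle had a median of 1.71 ± 0.43 at 3 hpi and 1.02 ± 0.28 at 6 wpi at the base, where roots form, but 0.69 ± 0.24 at 3 hpi and 0.09 ± 0.19 at 1 dpi in needles.

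**Figure D2:**
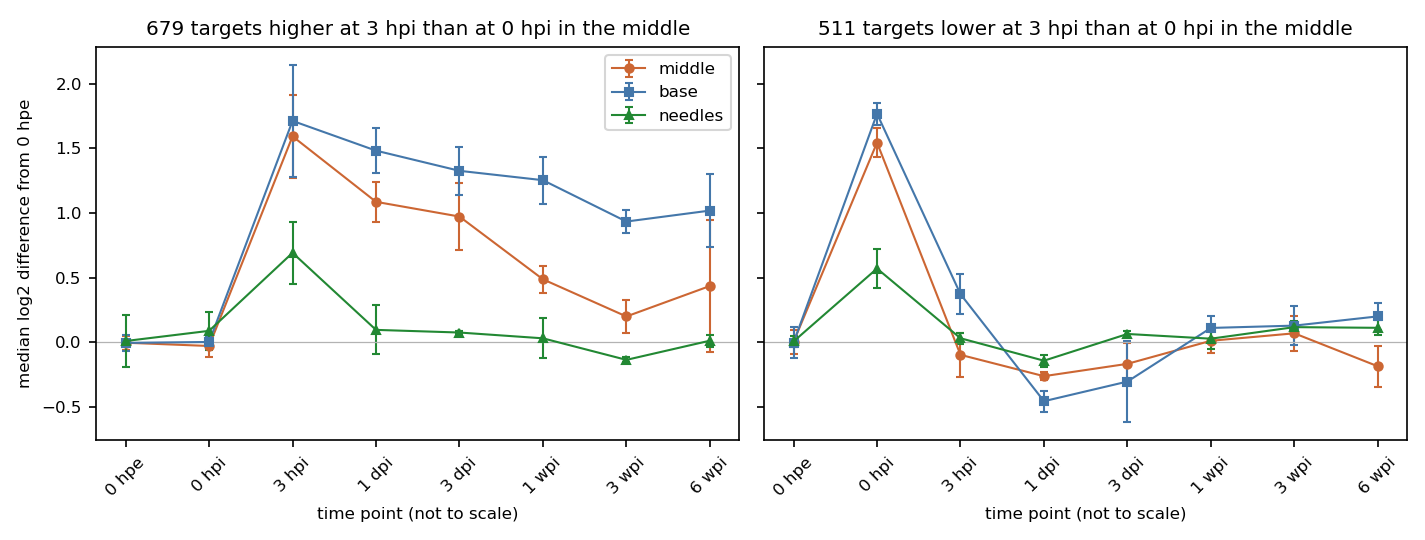
Median log2 difference from 0 hpe of the 679 targets called higher (left) and the 511 called lower (right) in the middle at 3 hpi against 0 hpi, for middle, base and needles over the 8 time points (mean ± SD of 3 arrays, time points evenly spaced and not to scale). In the middle the first set has its highest value, 1.59, at 3 hpi and the second has its highest value, 1.54, at 0 hpi.

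The counts for gene lists are read against the 7.8% called higher and 5.12% called lower among the 4515 targets with a usable hit (12.9% in either direction). Disease resistance proteins of the NBS-LRR class formed the list with the most falls: of 72 members, 24 fell and 2 rose, with a median log2 difference of −0.69. The count of falls was between 22 and 27 when each array was left out in turn. The member with the largest fall, reCj19447 with LRR and NB-ARC domains, was at 0.72, 0.97 and 0.60 at 0 hpi and at −4.29, −2.91 and −2.17 at 3 hpi. The groups were far apart, and the log2 difference was −3.89 ± 0.41 (adjusted p = 1.78e-08). The TIR-NBS-LRR proteins reCj00371 (−3.16 ± 0.34, adjusted p = 2.35e-08), reCj26798 (−3.12 ± 0.26, adjusted p = 1.40e-10) and reCj00370 (−3.04 ± 0.39, adjusted p = 9.04e-07) followed. Members of this family can share sequence, so that related targets may not be independent. The list was above its 0 hpe level at 0 hpi (0.85 ± 0.16, SD, n = 3) and near it at 3 hpi (−0.07 ± 0.25).

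Calcium sensors, which bind the ion during early stress signalling, had 8 falls and 1 rise among 34 members. The calmodulin-binding protein reCj20738 was at −0.13, −0.25 and 1.28 at 0 hpi and at −1.44, −2.26 and −2.62 at 3 hpi, which was a fall of 2.41 on the log2 scale (SE 0.68, adjusted p = 0.0154). Calmodulin CAM1 (reCj31004) was at 1.17, 1.63 and 1.83 at 0 hpi and at −0.01, −0.51 and −1.70 at 3 hpi, with a log2 difference of −2.29 ± 0.68 (adjusted p = 0.0216). Both calls were lost without replicate 3 of 0 hpi (adjusted p = 0.107 and 0.0765) or without replicate 3 of 3 hpi (adjusted p = 0.0516 and 0.101), and that of CAM1 with slide as a block (0.0692). The number of falls in the list was 3 without replicate 3 of 0 hpi and 7 without replicate 1 of 3 hpi. In the EF-hand protein reCj16779, replicate 1 of 3 hpi (3.06) stayed close to the 0 hpi arrays (3.50, 3.52 and 3.90), and only replicates 2 and 3 were low (−0.01 and −1.33).

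The receptor kinases, which carry signals across the plasma membrane, had calls both ways, with 9 rises and 11 falls among 85 members. The leucine-rich repeat kinase reCj19034 fell from 1.85, 1.90 and 2.48 to −0.87, −1.29 and −1.45 (log2 difference −3.28 ± 0.49, adjusted p = 1.08e-05). The falls were 4 without replicate 3 of 0 hpi and 13 without replicate 3 of 3 hpi. The list of cytochrome P450 monooxygenases, drawn by the names of the hits, had 24 targets tested. Of these, 4 fell and none rose at limma's threshold, and the falls numbered 1 without replicate 1 of 0 hpi. The largest fall in the list was that of a family 72 member, reCj20472 (−2.68 ± 0.36, adjusted p = 2.00e-06). The list does not cover the whole family. AOS, GA3 and TT7, which were called higher, are P450 enzymes too and were not in it.

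Ethylene targets showed the opposite balance, with 8 rises and 2 falls among 24 members and a median of 0.59, and the AP2/ERF factors, which overlap with them, had 8 rises and 3 falls among 44. The rises numbered 5 in each list without replicate 2 of 0 hpi. An oxygenase related to ACC oxidase, which makes ethylene (reCj26915), was at 0.31, −0.95 and 1.68 at 0 hpi and at 5.33, 4.99 and 4.51 at 3 hpi. It rose by 4.60 ± 1.21 on the log2 scale (adjusted p = 0.00844), and its adjusted p was 0.0652 without replicate 2 of 0 hpi. The ethylene response factor EBP (reCj29518) was at −0.89, −0.26 and −0.06 at 0 hpi and at 2.89, 3.63 and 3.25 at 3 hpi, all 3 higher (3.66 ± 0.54, adjusted p = 1.08e-05). ERF71 (reCj28296), a group VII factor that responds to low oxygen, rose by 4.04 ± 0.77 (adjusted p = 0.00034), and the ethylene receptor ETR2 (reCj18869) by 1.68 ± 0.37 (adjusted p = 0.00164). The list stood at 1.21 ± 0.32 above 0 hpe at 0 hpi and at 2.40 ± 0.21 at 3 hpi. The 0 hpe arrays were on another slide, and a rise before insertion was not separated from slide here.

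Of other regulators, the NAC factor ATAF1 (reCj23757), induced by wounding and abscisic acid, was at −0.63, −1.98 and 0.78 at 0 hpi and at 3.996, 3.58 and 3.14 at 3 hpi. This was a rise without overlap (4.18 ± 1.07, adjusted p = 0.00688), lost without replicate 2 of 0 hpi (3.49, adjusted p = 0.0632). NAC100 (reCj21359, −2.85 ± 0.49, adjusted p = 9.76e-05) and NAC036 (reCj26519, −2.50 ± 0.40, adjusted p = 3.12e-05) fell, as 2 of the 8 NAC targets. A GRAS factor, reCj24218, was at −5.07, −4.51 and −5.07 at 0 hpi and at −1.58, −0.43 and 0.77 at 3 hpi, higher in all 3 arrays (4.47 ± 0.69, adjusted p = 1.89e-05). Among auxin targets 0 of 25 rose and 3 fell, including the SAUR proteins, small auxin-induced regulators of growth, reCj28373 (−1.47 ± 0.40, adjusted p = 0.011) and reCj26376 (−1.43 ± 0.40, adjusted p = 0.0133). The first of these calls was lost without replicate 1 of 3 hpi (adjusted p = 0.075) and the second without replicate 3 of 0 hpi (adjusted p = 0.0804) or of 3 hpi (0.110).

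Ribosomal protein genes had calls in 1 direction only: 12 of 82 were called higher and none lower by limma. At an unadjusted p below 0.05 the counts were 50 higher and 1 lower, against 3867 of all 14235 targets in either direction. Their array medians were 0.50, 0.37 and 0.29 at 0 hpi and 1.32, 1.18 and 0.82 at 3 hpi, without overlap. Ribosomal protein S3Ae (reCj26907) was at 0.93, 0.81 and 0.77 at 0 hpi and at 2.96, 2.42 and 2.20 at 3 hpi (log2 difference 1.69 ± 0.20, adjusted p = 1.83e-07). The number of rises was 4 without replicate 1 of 3 hpi and 20 without replicate 3 of 3 hpi. A nucleolar GTP-binding protein needed for large subunit assembly (reCj20155) also rose (1.77 ± 0.29, adjusted p = 4.38e-05), as did 2 more of the 28 ribosome biogenesis targets.

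The list of fermentation, sucrose and starch metabolism had 4 rises and no fall among 46 targets at limma's threshold, a share near that of all targets with a usable hit. At an unadjusted p below 0.05 there were 12 higher and 4 lower, against 3867 of all 14235 targets in either direction. Alcohol dehydrogenase ADH1 (reCj24166), which regenerates NAD under low oxygen, was at 3.05, 2.49 and 3.19 at 0 hpi and at 7.39, 5.50 and 5.93 at 3 hpi, and the difference was 3.37 ± 0.83 (adjusted p = 0.0051). Pyruvate decarboxylase, the step before it (reCj12224), was at 0.87, 0.12 and 1.23 at 0 hpi and at 6.22, 2.64 and 2.83 at 3 hpi, with a difference of 3.16 ± 0.95 (adjusted p = 0.0224). Replicate 1 of 3 hpi was the highest array of both. Without it the adjusted p was 0.0576 for reCj24166 and 0.270 for reCj12224, and none of the 46 targets was called higher. The call of reCj12224 was also lost with slide as a block (adjusted p = 0.0568), with a replicate block (0.0679) and with only the arrays compared in the fit (0.0994). The 6 rises among 40 targets of glutathione and redox metabolism also fell to 1 without that array. Glutathione peroxidase GPX6 (reCj25551, 2.33 ± 0.47, adjusted p = 0.000621), which removes peroxides, was 3.54 in replicate 1 and 0.93 and 0.95 in the others, all above 0 hpi (−0.50, −0.68 and −0.38).

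In the cell wall list, 3 of 71 targets rose and 3 fell, the median being −0.43. The expansin-like EXLB1 (reCj28313), of a family that loosens walls, went from −0.60, −0.66 and −0.43 to 3.95, 3.35 and 3.34, higher in all 3 arrays (4.11 ± 0.79, adjusted p = 0.000381). XTH15 (reCj27910) rose (3.35 ± 0.75, adjusted p = 0.00208), opposite to XTH24 of the same enzyme family. Flavonoid 3′-hydroxylase TT7 (reCj20840), which adds a hydroxyl group to flavonoids, was at 3.08, 3.30 and 3.11 at 0 hpi and at 5.44, 5.49 and 5.31 at 3 hpi. Its 3 arrays were close at both times (2.25 ± 0.30, adjusted p = 2.02e-06).

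Of 13 clock and light signalling targets, 4 rose and none fell, with time of day differing between the groups. GIGANTEA (GI, reCj17945), a clock protein with a daily rhythm, was at 0.28, 0.30 and 0.26 at 0 hpi and at 2.15, 1.89 and 1.84 at 3 hpi. The arrays were tight at each time and clearly apart (1.68 ± 0.22, adjusted p = 1.39e-06). The phytochrome-interacting factor PIF3 (reCj23186) rose by 1.88 ± 0.32 (adjusted p = 9.15e-05). For cell division, 1 of 57 targets rose and 3 fell, with a median of −0.73 and array medians of −1.03, −1.07 and −1.14 at 0 hpi and of −1.81, −1.33 and −2.25 at 3 hpi. The falls numbered 8 without replicate 2 of 3 hpi and 1 without replicate 1 of 0 hpi.

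**Figure D3:**
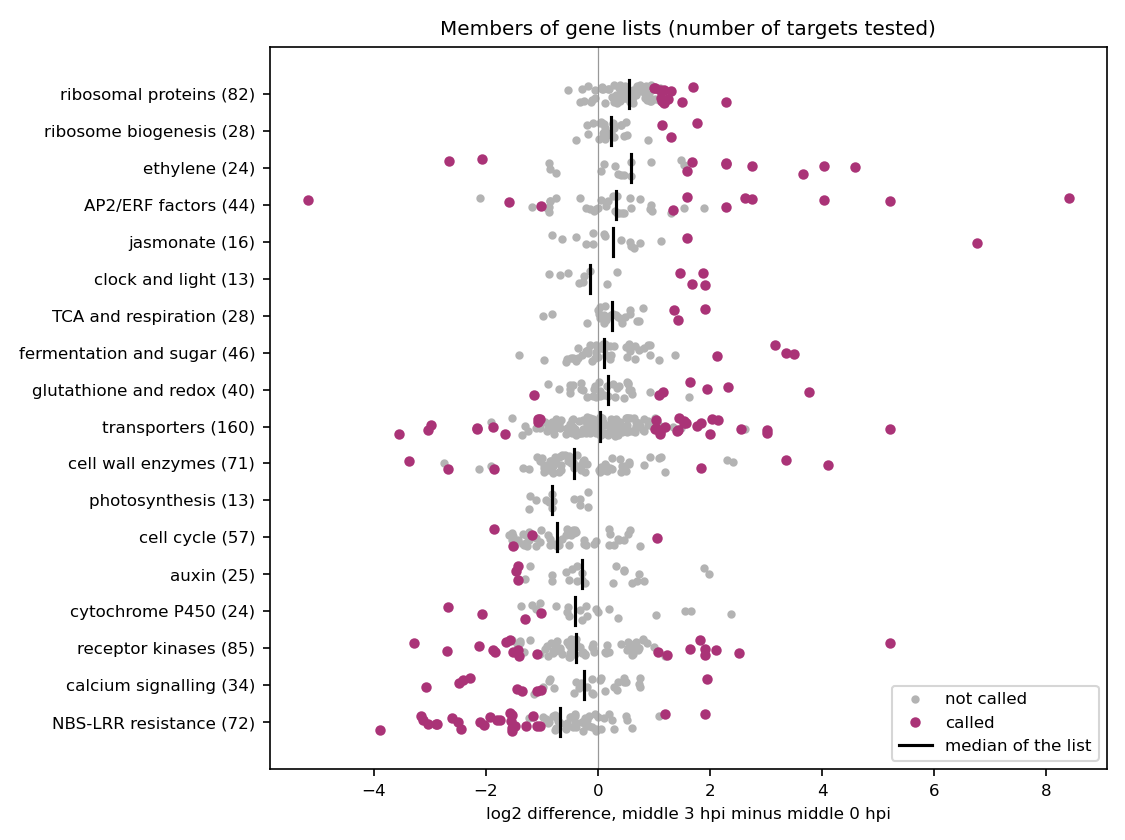
Log2 difference between 3 hpi and 0 hpi in the middle for each tested member of 18 gene lists, with called members in colour and the list median as a bar (number of targets tested in parentheses). The NBS-LRR list has 24 of its 72 members called lower, and the ribosomal list has a median of 0.56 with 12 of 82 members called higher.

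The targets that the study listed for root formation or measured by quantitative RT-PCR numbered 37, and all were tested. By limma 3 were called higher (NIA1, the oxygenase reCj26915 and SCL3), a share like the 7.8% among targets with a usable hit, and none lower. An adjusted p below 0.05 was reached by 6 and an unadjusted one by 12, and the median difference was −0.23. Over all 14235 targets tested, 1955 and 3867 reached these thresholds. SCL3 (reCj22196, with the primers shown above), a GRAS factor that promotes gibberellin responses in the root endodermis, was at 0.45, 0.29 and 0.63 at 0 hpi and at 2.11, 1.79 and 2.03 at 3 hpi. Its groups were apart (1.52 ± 0.46, adjusted p = 0.0219), but the call was lost without replicate 1 (adjusted p = 0.0625) or 2 (0.083) of 0 hpi and without replicate 1 of 3 hpi (0.0889), and with slide as a block (0.0564). The 11 auxin response factors, transcription factors that read the auxin signal, had differences of −1.21 to 0.83 and no call.

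Some targets were well above background at 1 time only, where a fold change is a lower bound set against the lowest signal that was well above background on each array. There were 15 of these that were detected only at 3 hpi and 16 only at 0 hpi, none with a usable hit. The largest bound was that of reCj27420, at −2.13, −0.72 and −2.22 at 3 hpi and not well above background at 0 hpi, at least 21.0-fold higher. In the other direction reCj23305 was at least 4.48-fold lower at 3 hpi.

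To ask whether the middle changed as the other organs of the same cuttings did, the called targets were read on the arrays of base and needles, which are separate arrays but share cuttings with the middle. At the base 17.3% of 12992 targets were called (8.12% higher and 9.21% lower). Of the 642 targets called higher in the middle that were tested at the base, 503 (78.3%) were called higher there and 1 lower, with a median log2 difference of 1.67. Of 481 called lower in the middle, 338 (70.3%) were called lower there and none higher, with a median of −1.72. In needles, where 6.06% of 12696 targets were called (2.96% higher and 3.1% lower), 112 of 609 (18.4%) were called higher and 20 lower, with a median of 0.55. Of 458 targets called lower in the middle, 135 (29.5%) were called lower in needles and 10 higher, with a median of −0.72. The base therefore shared most and the needles fewer of the calls. Targets selected for a large difference in the middle tend to have smaller ones elsewhere, and the difference between organs was tested over all targets as follows.

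**Figure D4:**
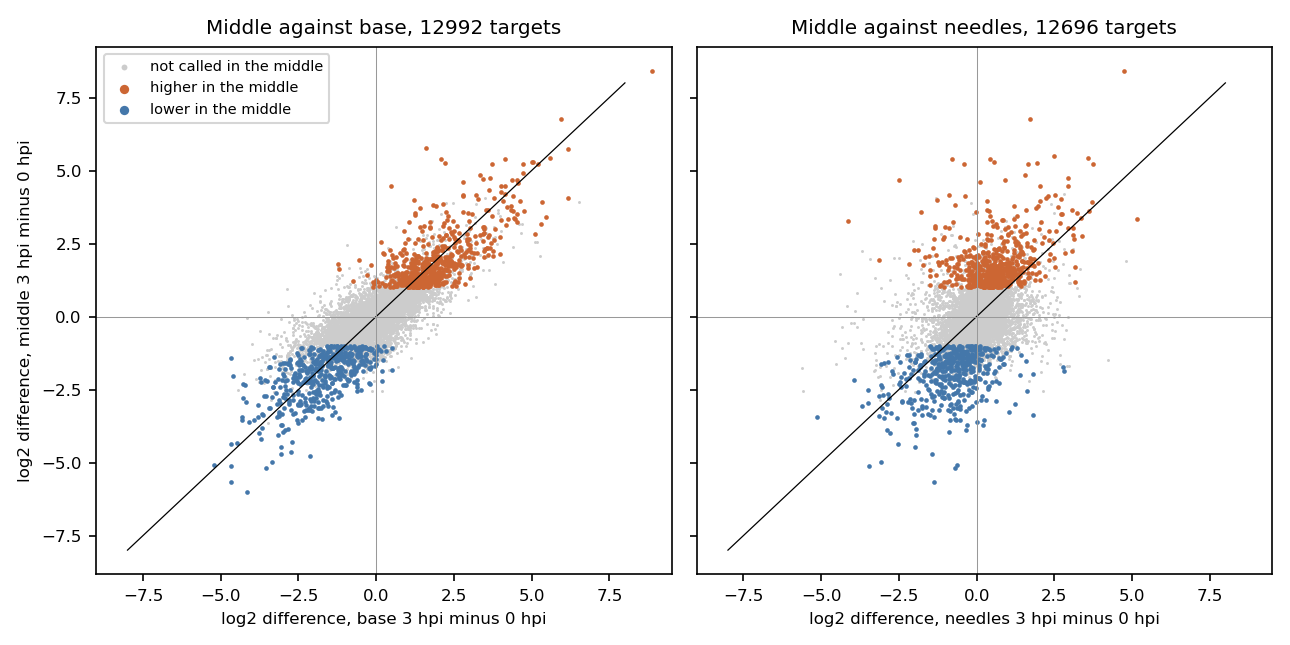
Log2 difference between 3 hpi and 0 hpi in the middle (vertical) against the base (left, 12992 targets) and needles (right, 12696 targets), with targets called in the middle in colour and the line of equal change. Targets called in the middle lie along the line for the base, where 503 of 642 of the higher ones were called higher, and farther from it for needles, where 112 of 609 were.

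The middle and base changes differed for 35 of 12992 targets (0.269%, limma interaction), 26 (0.2%) with the larger value in the middle and 9 (0.0693%) with the smaller. The number was 0 when only the arrays compared entered the fit (1318 at an unadjusted p below 0.05), 4 with slide as a block and 242 without replicate 1 of middle 3 hpi, so that the individual calls are uncertain. Arrays of base 0 hpi and base 3 hpi share no slide. With this reservation, an oxygenase of the 2-oxoglutarate type, reCj24171, had means of 0.03 and −0.58 at 0 hpi and 3 hpi in the middle and of 0.22 and −3.22 at the base. The difference of the changes was 2.83 ± 0.58 (adjusted p = 0.020). EDS1 (reCj20440), a lipase-like protein that works downstream of TIR-NBS-LRR receptors, had means of 2.73 and 1.05 in the middle and of 2.19 and 2.16 at the base, a difference of −1.65 ± 0.38 (adjusted p = 0.0477). Cellulose synthase CESA2 (reCj17990) had means of −1.24 and −1.88 in the middle and of −1.88 and −0.81 at the base (difference −1.72 ± 0.34, adjusted p = 0.019). The calls of reCj24171, EDS1 and CESA2 were lost in 12, 19 and 10 alternative settings. That of EDS1 was lost when any array was left out except replicate 1 of middle 3 hpi.

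Middle and needles differed in their change for 549 of 12696 targets (4.32%), 269 (2.12%) with the larger value in the middle and 280 (2.21%) with the smaller. Needle arrays of 0 hpi and of 3 hpi share no slide. The count was 285 with slide as a block, 342 without replicate 2 of middle 0 hpi and 805 without replicate 3 of middle 3 hpi. Hydroxymethylglutaryl-CoA synthase (reCj22268), which supplies mevalonate for isoprenoids, went from a mean of 0.25 to 2.18 in the middle and from 3.03 to −0.10 in needles, and the difference of the changes was 5.06 ± 0.71 (adjusted p = 2.31e-06). XTH24 (reCj28642), which fell in the middle, went from 0.78 to 2.58 in needles (difference −5.16 ± 0.86, adjusted p = 5.99e-05). The AP2/ERF factor reCj33014 and the heavy metal protein reCj34125, at a high level in the middle at 0 hpi, went in needles from −0.80 to −1.50 and from 2.02 to 0.65. The respective differences of the changes were −4.48 ± 0.64 (adjusted p = 3.2e-06) and −4.31 ± 0.79 (adjusted p = 0.00024). The oxygenase reCj25943, which rose in the middle, went from 0.12 to 0.69 in needles (difference 4.72 ± 0.88, adjusted p = 0.00028).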

How the data were processed

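The authors hybridised Cy3-labelled RNA to 1-colour Agilent arrays and deposited Feature Extraction 11.5 output: an intensity for each spot, detrended and background-subtracted by the software, with no normalization between arrays. A second deposited file held log2 values scaled to the 75th percentile and centred per probe. Here, non-uniform spots were dropped, the processed signals of the others were averaged (3 or 4 spots per target), and the log2 of the average was set against the 75th percentile of its array. A target was tested when no spot was flagged, every spot was well above background and the mean signal exceeded 10 on the arrays compared. limma 3.58.1 in R 4.3.3 (lmFit, eBayes) was fitted to the 48 base and middle arrays (16 groups of 3), and for needles to all 72 arrays, without a block. Benjamini-Hochberg adjustment ran over the targets tested. Targets were called at a 2-fold change or more when the adjusted p was also under 0.05. Bars after ± are SE for differences. The number of arrays limits the precision. On simulated data for the middle at 3 hpi against 0 hpi, 58 of 100 targets changed by 1.5 on the log2 scale were recovered. Of 100 changed by 3, 90 were recovered, and there were 8 other calls. Both the recovery and the other calls describe simulated arrays only. Measured middle arrays differed more among themselves at 3 hpi (r = 0.891 to 0.946) than at 0 hpi (0.970 to 0.987). Whether the rates carry over to the measured arrays was not tested.

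Named targets were the 10 largest rises and 10 largest falls with an Arabidopsis hit (E below 1e-05) and no overlap of arrays, the 2 largest of each without one, called targets of the root formation and primer lists, up to 4 called members per gene list, up to 5 per direction for differences between organs, and the largest bounds. The text gives some of them. Targets, gene lists and tests were chosen with earlier results of these data known. Replicates are separate cuttings. Slide and scan were the same division, so that a scan block was not distinct. For the normexp alternative, the median spot signal replaced the mean signal. Replicate numbers did not pair the arrays (closing section). Coordinates were not used.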

Additional observations from a re-analysis of the deposited data

Results flagged for a closer look

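Both differences of change between organs were singled out because the change from 0 hpi to 3 hpi was not the same in the middle as in another organ, by limma's test of the difference. For the middle against the base, 35 targets were called. Those with a usable hit and the largest values in the middle were reCj24171 (2-oxoglutarate oxygenase, 2.83), reCj20214 (NB-ARC disease resistance protein, 2.35), reCj21710 (homeodomain-like, 2.31), reCj22487 (HB31, 1.87) and reCj18065 (Clp-N motif protein, 1.81), in each of which the base fell while the middle mean moved by less. Those in the other direction were reCj18104 (DUF3133 protein, −2.19), reCj17990 (CESA2, −1.72), reCj20832 (CDP-diacylglycerol synthase family, −1.70), reCj20440 (EDS1, −1.65) and reCj29661 (TIR-NBS-LRR protein, −1.61).

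For the middle against needles, 549 targets were called. The largest values with a usable hit were those of reCj17987 (ABCG40, 5.62), reCj22907 (GH9B1, 5.29), reCj22268 (hydroxymethylglutaryl-CoA synthase, 5.06), reCj23757 (ATAF1, 5.06) and reCj25943 (2-oxoglutarate oxygenase, 4.72). In the other direction they were those of reCj28642 (XTH24, −5.16), reCj16168 (EXL2, −4.68), reCj27157 (EXL2, −4.60), reCj33014 (AP2/ERF, −4.48) and reCj34125 (heavy metal transport, −4.31). In the middle alone, the change of reCj16168 (adjusted p = 0.24, limma) and that of reCj27157 (adjusted p = 0.086) were not called. With slide as a block the adjusted p of the difference from needles was 0.195 for reCj17987, 0.217 for reCj22907, 0.150 for reCj23757 and 0.0761 for reCj16168, so that these calls were lost. Leaving out single arrays also ended those of reCj17987, reCj22907 and reCj23757. Groups held 3 arrays, too few to single out an array by its distance from the others.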

How the results depend on the processing

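Among the targets named, 113 were called in the middle at 3 hpi against 0 hpi, of which 62 were called whichever array was left out and 55 under every alternative with a test. The count of 1190 calls was 1955 without the minimum difference, and 762 to 1448 when each array was left out. All other settings gave 832 to 1371, among them 927 with slide as a block on the 6 arrays alone, chosen after seeing the data. The targets called changed more than these totals. Of the 1190, 706 were among those 927. With only the arrays compared in the fit, 878 of them were among 1137 calls, and with array weights 978 were among 1257. With the authors' log2 values 1189 of them were called. Replicate numbers did not pair the arrays of 0 hpi and 3 hpi (same-number correlations of −0.01, −0.05 and −0.26), and a replicate block gave 1156 calls (646 higher). Organs of 1 time came from the same cuttings, which the fit does not use. Their same-number correlations with the middle were −0.02 to 0.34 (base, 0 hpi), −0.13 to 0.25 (base, 3 hpi), −0.14 to 0.09 (needles, 0 hpi) and −0.02 to 0.29 (needles, 3 hpi), so that the numbers were not shown to mark a cutting. For the middle against the base, 35 calls became 5 under quantile normalization, 0 under normexp background correction (912 at an unadjusted p below 0.05), 4 with the median of each array as the scale (which moved the median difference of all targets to −0.15), 23 without the filter on dim spots, 0 with only the arrays compared in the fit (1318 at an unadjusted p below 0.05), 4 with slide as a block, 96 with a replicate block, 177 with array weights and 2 to 242 when each array was left out. For the middle against needles, 549 became 285 with slide as a block, 700 with a replicate block and 342 to 805 when each array was left out. The cause was not tested. The fall of reCj24318 (−1.48, a homeodomain-like protein) was 0.076 within the slide that holds replicate 1 of 3 hpi. Dim targets are limited by signal over background, and 14235 of 19304 were tested.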
